A study of Mus musculus with 3 samples.

Results

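The last 1 Mb of each of chromosomes 1 to 19 was examined on the side away from the centromere, as 1 kb bins in the mm9 build. The end of a chromosome was the largest read end found on it in any of the 3 deposited files, and bins were counted back from there. This gave 1000 bins per chromosome and 19000 bins in all, of 2415318 bins between the first and the last read of the autosomes. The choice rests on position alone and used no read count. Chromatin immunoprecipitation followed by sequencing (ChIP-seq) had been done on mouse embryonic stem (ES) cells of strain C57BL/6, kept on gelatin without feeder cells in medium with ESGRO, and nothing in the labels separates the cells of the 3 libraries. The libraries were made with a TET2 antibody produced in-house, with an OGT antibody from Novus, and with an antibody supplied by Ryoji Fujiki against H2B S112GlcNAc, which is histone H2B with a sugar on a serine. Each antibody had 1 library, and no input or IgG library was used here, so a value describes its library and no difference has a replicate check.

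Mouse autosomes carry their centromere at one end, and the last megabase examined here lies at the other, towards the telomere of the long arm. Telomeric DNA is a long run of copies of a 6-base unit bound by its own set of proteins, and such tandem repeats are hard to assemble and to map with short reads. TET2 oxidises 5-methylcytosine in DNA, and OGT is the enzyme that puts single N-acetylglucosamine (GlcNAc) sugars on proteins, histones among them. No mm9 sequence or gene annotation was used, so bins are given by position and are not assigned to genes, exons or introns.

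On the autosomes the libraries held 3187616 TET2, 1813853 OGT and 3885234 H2B S112GlcNAc distinct 5′ ends. A distinct 5′ end is a position and strand counted once however many reads start there. This is 1.32, 0.751 and 1.61 ends per kb, and 14.1%, 14% and 13.6% of reads repeated an end already counted. A single bin is therefore thinly covered, and 2141 of the 19000 bins (11.3%) had no read in any library, against 11.9% of all autosomal bins. Density is given as a fold over the mean of the same chromosome in the same library, which scales for library size but not for the limited number of positions in a bin where reads pile up. Intervals are exact and 95%, and they cover counting error alone, because reads copied by PCR need not stem from separate molecules.

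Over the whole last megabase the read density was slightly above the chromosome mean for all 3 antibodies. The fold in distinct ends was 1.07 for TET2 (1.06 to 1.08, from 27062 ends). It was 1.08 for OGT (1.06 to 1.09, 15491 ends) and 1.05 for H2B S112GlcNAc (1.04 to 1.06, 32350 ends). With every read counted the folds were 1.08, 1.07 and 1.05.

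These small excesses lay mostly in very few bins. In the last megabase 7 bins held more than 50 reads in every file, as did 218 bins (0.00903%) of all autosomal bins. Without such bins, in the last megabase and in the chromosome means alike, the folds were 1.02 for TET2 (1.005 to 1.03), 1.002 for OGT (0.986 to 1.02) and 1.01 for H2B S112GlcNAc (0.997 to 1.02). When only the final 1 kb of each chromosome was left out they were 1.004, 0.988 and 0.997. In all reads without the final 1 kb the folds were 0.937, 0.921 and 0.928, and with the bins above 50 reads left out as well, chromosome means included, they were 1.02, 0.996 and 1.01.

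The last megabase was less dense than the sequence next to it. Between 1 and 2 Mb from the end the folds were 1.16 for TET2 (1.15 to 1.18), 1.15 for OGT (1.14 to 1.17) and 1.14 for H2B S112GlcNAc (1.13 to 1.16). Between 2 and 5 Mb they were 1.34, 1.32 and 1.30, and between 5 and 10 Mb 1.35, 1.34 and 1.33. The opposite end of the same chromosomes had a higher density, since the first megabase counted from the first read had folds of 2.25, 2.62 and 2.23. Most of that excess lay in bins above 50 reads, without which it was 1.17, 1.19 and 1.19.

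**Figure D1:**
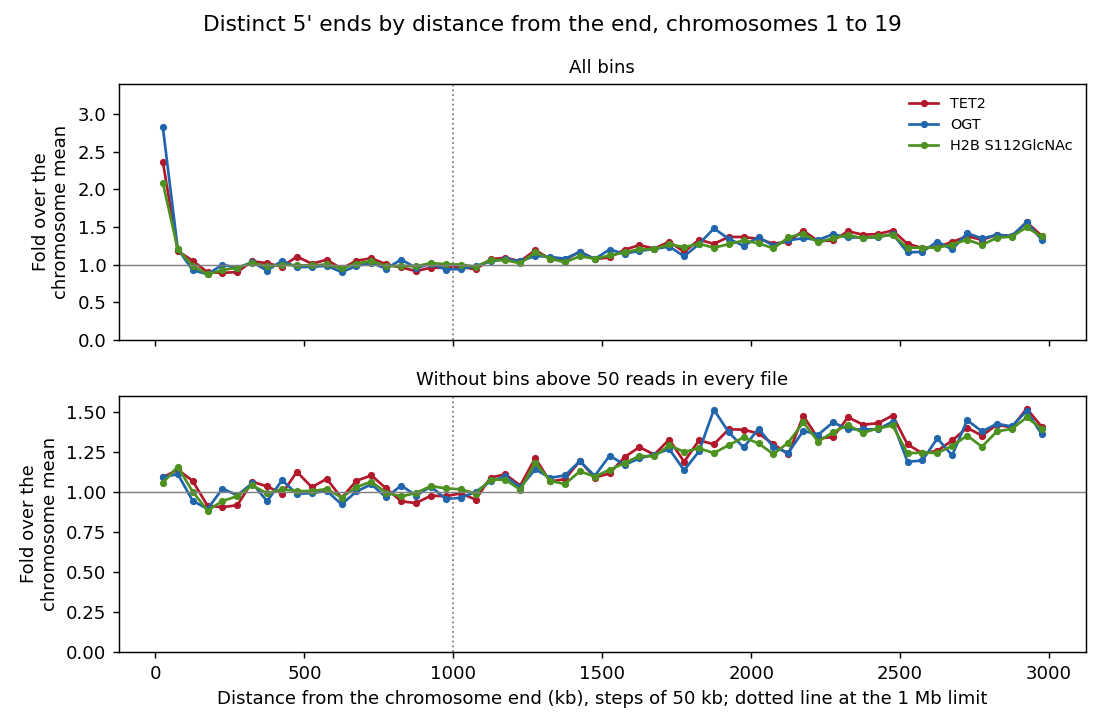
Fold of distinct 5′ ends over the chromosome mean (vertical axis) against distance from the chromosome end in kb (horizontal axis), in steps of 50 kb up to 3000 kb, summed over chromosomes 1 to 19, with 1 line per library. With all bins (top) the first step stands at 2.36 in TET2, 2.82 in OGT and 2.08 in H2B S112GlcNAc, and without bins above 50 reads in every file (bottom) it stands at 1.09, 1.09 and 1.06, with density rising beyond the dotted 1 Mb line in all 3 libraries.

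By distance, the high density was in the final 1 kb and nowhere else in the last megabase to a like degree. The final 1 kb had folds of 66.6 for TET2 (63.4 to 69.8), 90.0 for OGT (85.1 to 95.01) and 53.9 for H2B S112GlcNAc (51.3 to 56.5). With every read counted these were 144, 148 and 119. From 1 to 10 kb the folds were 1.43 (1.28 to 1.60), 1.27 (1.09 to 1.48) and 1.33 (1.20 to 1.47), and 9, 7 and 8 of the 19 chromosomes lay above their mean. The modest excess at 1 to 10 kb was thus present in a minority of chromosomes.

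Further in, the folds stayed near 1. They were 0.968, 0.991 and 0.959 from 10 to 50 kb, and 1.18, 1.21 and 1.20 from 50 to 100 kb. From 100 to 250 kb they were 0.947, 0.933 and 0.929, from 250 to 500 kb 1.01, 0.986 and 0.990, and from 500 to 1000 kb 0.996, 0.978 and 0.998. Without 2 bins above 50 reads, the class at 50 to 100 kb had folds of 1.14, 1.11 and 1.16 for TET2, OGT and H2B S112GlcNAc.

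The signal of the final 1 kb belonged to 4 of the 19 chromosomes, and it stood in all 3 libraries. On chromosome 18, at 90771032 to 90772031, the bin held 645 TET2, 539 OGT and 667 H2B S112GlcNAc distinct ends from 1632, 1015 and 1679 reads. On chromosome 2, at 181747024 to 181748023, it held 632, 453 and 602 distinct ends from 1592, 881 and 1513 reads. These bins led the last megabase in every library, with folds of 539, 787 and 456 on chromosome 18 and of 476, 597 and 373 on chromosome 2.

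The final bins of chromosomes 11 and 5 came next in the same order in every library. On chromosome 11, at 121842857 to 121843856, there were 220 TET2, 155 OGT and 207 H2B S112GlcNAc distinct ends from 548, 287 and 577 reads, at folds of 131, 166 and 104. On chromosome 5, at 152536260 to 152537259, there were 141, 118 and 137 distinct ends from 364, 231 and 364 reads, at folds of 98.9, 148 and 79.6. These 4 bins held 97.3% of the TET2, 97.8% of the OGT and 97.2% of the H2B S112GlcNAc ends of the final 1 kb. Although they are 4 of 19000 bins, they held 6.05%, 8.17% and 4.99% of all ends of the last megabase.

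The final bins of the other 15 chromosomes held few ends. They held between 0 and 11 TET2 ends with a median of 2, between 0 and 6 OGT ends with a median of 1, and between 0 and 10 H2B S112GlcNAc ends with a median of 2. Together they held 46, 29 and 47 ends, which is 2.34-fold (1.71 to 3.12), 2.59-fold (1.73 to 3.72) and 1.96-fold (1.44 to 2.60) over their chromosome means. A final bin holds at least 1 read in some library by the way the end was found, which raises these folds. The most ends among the 15 were on chromosome 19, with 11, 5 and 10, and on chromosome 13, with 10, 6 and 9.

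The reads in the 4 end blocks lay close to the last base. Counting from the end, 99% of them fell within 591 to 594 bp on chromosome 2, 454 to 456 bp on chromosome 18, 176 to 178 bp on chromosome 11 and 131 to 132 bp on chromosome 5, each range taken over the 3 libraries. This distance therefore differed between chromosomes by several-fold and between libraries by at most a few bp. It is not the length of a block, since on chromosome 2 few reads started near the last base. There TET2 had 0 plus-strand and 3 minus-strand reads from 0 to 50 bp, and 3 and 19 from 50 to 100 bp, of 1592. From 100 bp beyond a block to 2 kb from the end there were 0 to 5 reads in a library, so the blocks stopped abruptly.

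**Figure D2:**
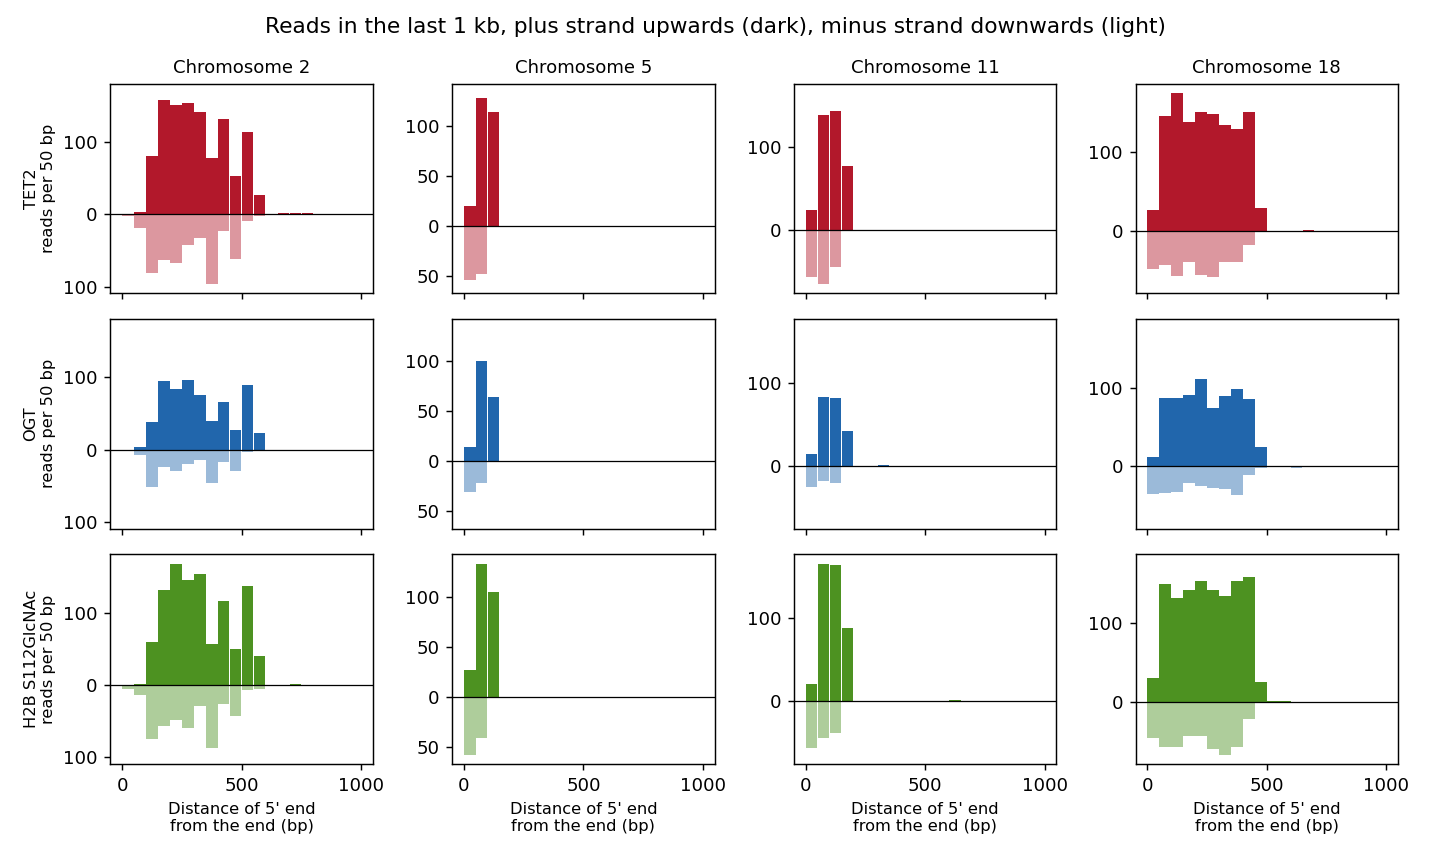
Reads per 50 bp (vertical axis, plus strand upwards in dark colour, minus strand downwards in light colour) against the distance of the 5′ end from the chromosome end in bp (horizontal axis), for the 4 chromosomes with a block in the final 1 kb (columns) and the 3 libraries (rows). Each chromosome has the same block in all 3 libraries, reaching 591 to 594 bp on chromosome 2, 131 to 132 bp on chromosome 5, 176 to 178 bp on chromosome 11 and 454 to 456 bp on chromosome 18, with more reads on the plus strand.

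Plus-strand reads, which run towards the end, outnumbered minus-strand reads in every block and library. In the final 1 kb the plus strand held 71.6% of TET2 reads (70.2% to 72.9%), 74.2% of OGT reads (72.4% to 75.9%) and 72.0% of H2B S112GlcNAc reads (70.6% to 73.3%). In the rest of the last megabase it held 53.0%, 53.5% and 53.1%, and over all autosomes 53.1%, 53.1% and 53.3%. Among single blocks and libraries the share ran between 68.4% for TET2 on chromosome 2 and 77.4% for OGT on chromosome 11. In distinct ends the plus share was smaller, between 56.8% for TET2 on chromosome 11 (49.99% to 63.5%) and 66.4% for OGT on chromosome 2 (61.9% to 70.8%), and the interval held the share of all autosomal reads for TET2 on chromosome 11 and for every library on chromosome 5. The median minus-strand 5′ end lay 26 to 50 bp nearer to the end than the median plus-strand one, against a read length of 44 bp.

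The same 5′ ends were read many times in the blocks. Each distinct end of the final 1 kb carried 2.48 TET2, 1.89 OGT and 2.52 H2B S112GlcNAc reads on average, against 1.07 in each library in the rest of the last megabase. No single position led, and the position with the most reads held 0.536% to 3.90% of a block's reads. The libraries also shared positions. In the chromosome 18 block 446 ends were common to TET2 and OGT, which is 69.1% of the TET2 and 82.7% of the OGT ends, and 398 of the 806 ends found in any library were found in all 3. That block offered few positions, since its TET2 profiles spanned 411 on the plus strand and 415 on the minus strand. Most of these positions held an end in some library, and ends placed without regard to each other would also coincide often. Across the blocks and pairs the shared part of a library's ends ran between 57.1% and 89.7%. Outside the final 1 kb it ran between 0.632% and 1.37% of the ends of the last megabase, where ends are far less dense, and the part that density plays in this was not tested.

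Within the blocks, the number of plus-strand reads per start position tended to repeat at a distance of 6 bp. The number of reads starting at a position was set against the number starting a given distance further on, over 12 profiles (4 blocks in 3 libraries), as a description of positions within 1 library. At 6 bp the correlation ran between 0.197 and 0.454 with a median of 0.286, and it was above the median over the distances at least 2 bp away from a multiple of 6 in 12 of 12 profiles. Those medians ran between −0.154 and 0.154. The distance with the highest correlation, among 2 to 24 bp, was a multiple of 6 in 12 of 12 plus-strand profiles. On the minus strand it was a multiple of 6 in 4 of 12. There the correlation at 6 bp had a median of 0.018 and was above the median over the other distances in 9 of 12 profiles.

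**Figure D3:**
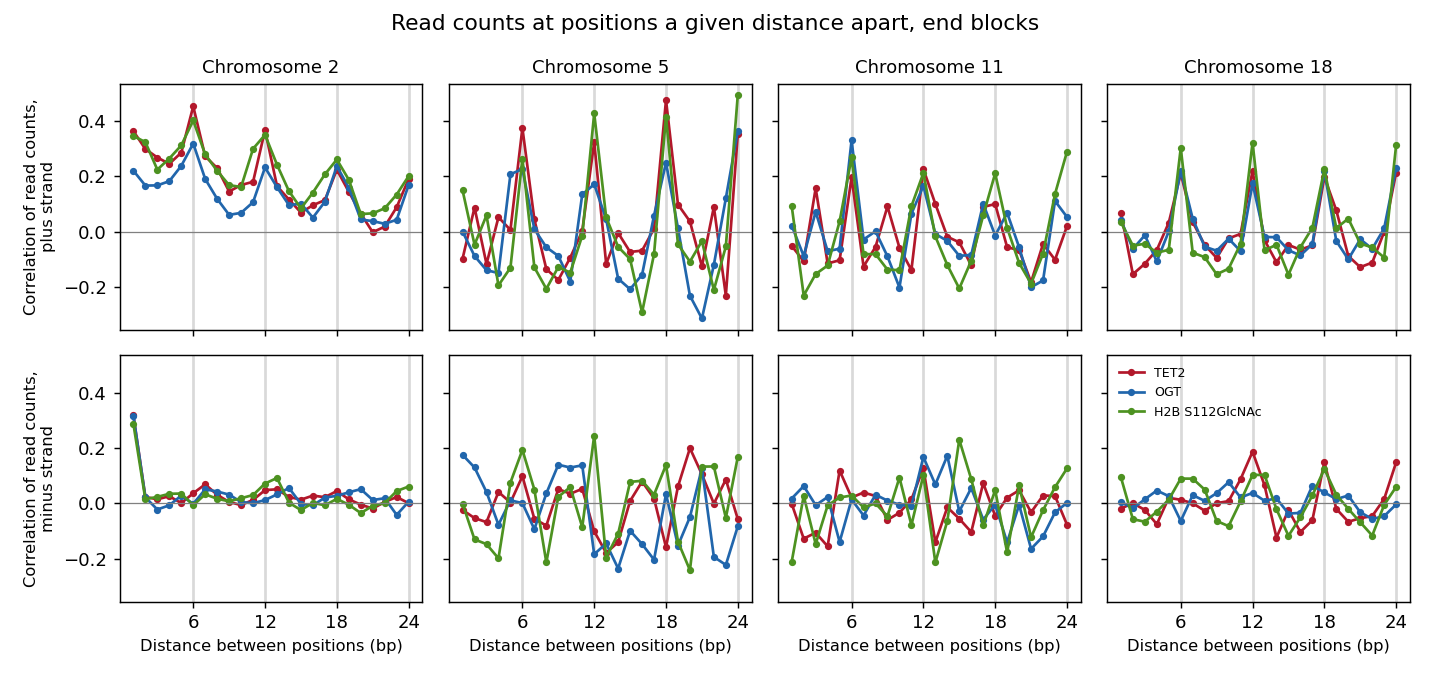
Pearson correlation between the read counts of positions a given distance apart (vertical axis) against that distance in bp (horizontal axis), for the plus strand (top) and the minus strand (bottom) of the 4 end blocks, with 1 line per library and grey lines at multiples of 6 bp. On the plus strand the lines rise at 6 and 12 bp in every block, with 0.197 to 0.454 at 6 bp, while the minus strand has no peak common to the blocks.

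Between antibodies, the ratios that involve OGT in the final 1 kb were further from 1 in distinct ends than in reads, and TET2 over H2B S112GlcNAc was similar in both. In distinct ends the fold of the final 1 kb in TET2 was 0.740 times that in OGT (0.688 to 0.796) and 1.24 times that in H2B S112GlcNAc (1.15 to 1.32), and OGT stood at 1.67 times H2B S112GlcNAc (1.55 to 1.80). In all reads the ratios were 0.970 (0.923 to 1.02), 1.21 (1.16 to 1.26) and 1.25 (1.19 to 1.31). A block offers at most 1 distinct end per base and strand, and a plus-strand read of 44 bp cannot start at the very end. For TET2 the final 1 kb held 391 plus-strand ends beside a block span of 411 positions on chromosome 18, and 375 beside 494 on chromosome 2. It held 125 beside 133 on chromosome 11 and 84 beside 89 on chromosome 5. The spans held 1220 of 1232 plus-strand reads on chromosome 18 and 1074 of 1089 on chromosome 2, so a few ends may lie outside them. The plus strand was thus nearly full on chromosomes 18, 11 and 5 and less so on chromosome 2. With distinct ends drawn down to 1814416 per library the ratios were 0.745, 1.27 and 1.70. With reads drawn down to 2110802 per library before distinct ends were counted, a setting chosen after seeing the data, they were 0.969 (0.896 to 1.05), 1.13 (1.04 to 1.23) and 1.17 (1.08 to 1.27). TET2 lay below OGT in distinct ends, at full depth or drawn down as distinct ends, and no difference was detectable in reads or in the distinct ends of equal numbers of reads. The intervals of TET2 and of OGT over H2B S112GlcNAc lay above 1 under each of these counts. Without bins above 50 reads, 46 TET2, 29 OGT and 47 H2B S112GlcNAc distinct ends were left in the final 1 kb. TET2 over OGT was then 0.899 (0.553 to 1.48) and TET2 over H2B S112GlcNAc 1.20 (0.779 to 1.84). OGT over H2B S112GlcNAc was 1.33 (0.808 to 2.16), and each of these intervals held 1.

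Over the whole last megabase the folds of the 3 antibodies were nearly equal. TET2 over OGT was 0.993 (0.974 to 1.01), TET2 over H2B S112GlcNAc 1.02 (1.003 to 1.04) and OGT over H2B S112GlcNAc 1.03 (1.01 to 1.05). Without bins above 50 reads in every file the ratios were 1.01, 1.01 and 0.994, and each interval held 1. No difference between antibodies was detectable at this depth once those bins were left out.

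Chromosomes differed from each other far more than antibodies did. Across the 19 chromosomes the fold of the last megabase ran between 0.477 and 2.09 in TET2 (median 0.911), between 0.476 and 2.28 in OGT (median 0.962) and between 0.510 and 1.98 in H2B S112GlcNAc (median 0.910). It was above 1 on 8, 9 and 7 chromosomes. The folds of 2 libraries across chromosomes had a Pearson correlation of 0.977 for TET2 and OGT, 0.995 for TET2 and H2B S112GlcNAc and 0.977 for OGT and H2B S112GlcNAc (n = 19 chromosomes, Spearman's rho 0.982 to 0.995). The points of a pair share their chromosome's sequence and its mappability, and this is a description.

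The densest last megabase was that of chromosome 2, with folds of 2.09 in TET2, 2.28 in OGT and 1.98 in H2B S112GlcNAc. Among the 178 windows of 1 Mb of that chromosome it ranked 9, 2 and 8. Without the bins above 50 reads, its end block among them, the folds were 1.62, 1.67 and 1.60. Chromosome 7 followed with 1.97, 1.82 and 1.88, and chromosome 4 with 1.99, 1.77 and 1.81, and neither had such a bin in its last megabase. Chromosomes 4 and 7 had overlapping intervals in every library and were not told apart.

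The sparsest was that of chromosome 12, with folds of 0.477 in TET2 (0.444 to 0.512), 0.476 in OGT (0.432 to 0.523) and 0.510 in H2B S112GlcNAc (0.478 to 0.542). Among the 118 windows of that chromosome it ranked 97, 100 and 96. Chromosome 17 had 0.515, 0.539 and 0.613, and chromosome 14 had 0.641, 0.687 and 0.646. Chromosomes 10, 8, 3, 9, 13, 1, 5 and 19 had mean folds over the libraries between 0.673 and 0.965, and chromosomes 6, 11, 16, 18 and 15 between 1.02 and 1.52.

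On chromosome 18 the end block decided on which side of the mean the last megabase lay. Its folds were 1.21 in TET2, 1.42 in OGT and 1.14 in H2B S112GlcNAc with all bins, and 0.678, 0.643 and 0.688 without bins above 50 reads. On chromosome 5 the folds were 0.875, 1.01 and 0.910 with all bins and 0.779, 0.869 and 0.834 without. On chromosome 11 they were 1.17, 1.23 and 1.16 with all bins and 1.05, 1.07 and 1.06 without, above 1 in both cases.

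**Figure D4:**
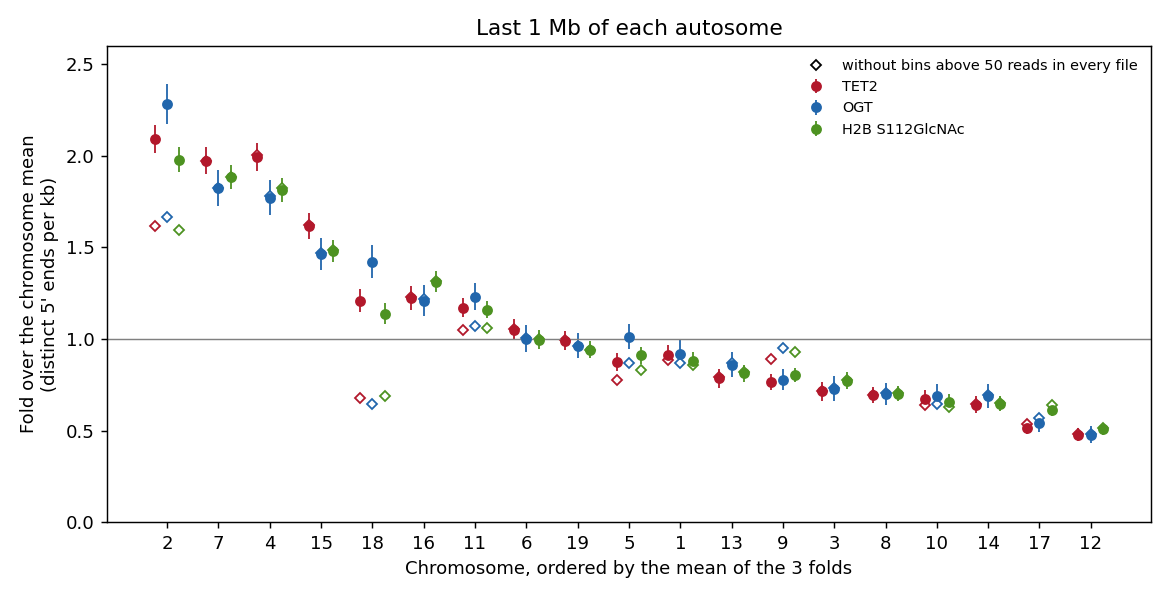
Fold of the last 1 Mb over the chromosome mean in distinct 5′ ends per kb (vertical axis) for each autosome (horizontal axis, ordered by the mean of the 3 folds), with 1 filled point per library, lines for exact 95% Poisson intervals that cover counting error alone, and open points for the fold without bins above 50 reads in every file, which the filled point covers where the values are close. Chromosomes 2, 7 and 4 stand highest and 17 and 12 lowest in all 3 libraries, and chromosome 18 drops below 1 without its end block.

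Single chromosomes showed small differences between antibodies. On chromosome 4 the TET2 fold was 1.13 times the OGT fold (1.06 to 1.20) and 1.10 times the H2B S112GlcNAc fold (1.04 to 1.16). On chromosome 15 it was 1.11 times (1.03 to 1.19) and 1.09 times (1.03 to 1.16), and on chromosome 7 it was 1.08 times the OGT fold (1.01 to 1.16). On chromosome 17 the TET2 fold was 0.840 times the H2B S112GlcNAc fold (0.766 to 0.920) and the OGT fold 0.880 times (0.788 to 0.980). On 3 others, all of them with an end block, the whole interval of TET2 over OGT lay below 1. The ratio was 0.916 (0.862 to 0.973) on chromosome 2, 0.864 (0.791 to 0.945) on chromosome 5 and 0.852 (0.785 to 0.925) on chromosome 18. On chromosome 11, which also had an end block, it was 0.952 (0.885 to 1.03). The ratio was above 1 on 7 of the 19 chromosomes, so values below 1 were not confined to chromosomes with an end block.

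Some of these ratios changed without bins above 50 reads and others did not. TET2 over OGT was then 0.970 (0.904 to 1.04) on chromosome 2, 1.05 (0.937 to 1.19) on chromosome 18 and still below 1 on chromosome 5, at 0.896 (0.814 to 0.987). OGT over H2B S112GlcNAc was 1.25 on chromosome 18 (1.15 to 1.35) with all bins and 0.935 (0.833 to 1.05) without them. On chromosome 16, with no such bin, TET2 over H2B S112GlcNAc was 0.932 (0.869 to 0.998). Of the 19 chromosomes, 3 had an interval above 1 and 3 an interval below 1 for TET2 over OGT. For TET2 over H2B S112GlcNAc and for OGT over H2B S112GlcNAc, 3 lay above and 2 below. Without bins above 50 reads these counts were 3 above and 1 below, 2 above and 2 below, and 0 above and 1 below. These intervals, 3 for each of 19 chromosomes, were not adjusted for their number.

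Outside the end blocks 3 further bins held more than 50 reads in every file. On chromosome 10 at 129172190 to 129173189, 820 kb from the end, there were 48 TET2, 37 OGT and 43 H2B S112GlcNAc distinct ends from 146, 80 and 116 reads. On chromosome 1 at 197104959 to 197105958, 89 kb from the end, there were 34, 33 and 36 ends from 117, 82 and 119 reads. Both bins resembled the end blocks in reads per distinct end, at 2.16 to 3.44, and in strand, with at least 71.4% of reads on the plus strand. They were narrower than the end blocks, with the middle 90% of reads within 53.95 to 64.05 bp. The spacing of their reads was not examined.

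The third bin was of another form. On chromosome 2 at 181665024 to 181666023, 82 kb from the end, there were 46 TET2, 56 OGT and 67 H2B S112GlcNAc distinct ends from 55, 64 and 78 reads. The reads were spread over most of the bin, the middle 90% spanning 855 to 907 bp, with 46.9% to 53.8% on the plus strand and 1.14 to 1.20 reads per distinct end. Its folds were 34.6, 73.8 and 41.5. The bin at 181652024 to 181653023, 95 kb from that end, had a like spread with 45, 24 and 57 ends, at folds of 33.9, 31.6 and 35.3.

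A further 3 bins were among the 8 with the highest fold in TET2, and 2 of them also among the 8 in H2B S112GlcNAc. On chromosome 9 at 123370521 to 123371520, 704 kb from the end, 71 TET2, 25 OGT and 64 H2B S112GlcNAc ends gave folds of 44.1, 26.2 and 32.6. On chromosome 1 at 197066959 to 197067958, 127 kb from the end, 51, 18 and 59 ends gave 45.2, 27.8 and 42.1. On chromosome 19 at 61274765 to 61275764, 66 kb from the end, 51, 21 and 68 ends gave 35.9, 26.5 and 39.5. In these bins each distinct end carried 1.07 to 1.41 reads, far fewer than in the end blocks, and all 3 libraries were high.

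Counted by a fixed rule, of 4-fold or more over the chromosome mean with at least 10 distinct ends, 140 bins of the last megabase (0.737%) were dense in TET2, against 0.513% of all autosomal bins. For OGT it was 20 bins (0.105%) against 0.0604%, and for H2B S112GlcNAc 111 bins (0.584%) against 0.365%. The shares of the last megabase were thus higher than those of the autosomes in all 3 libraries. In each library 7 of these bins were the bins above 50 reads in every file, the end blocks among them. That is 7 of only 20 in OGT, and autosomal shares without such bins were not computed, so the OGT excess may rest on them. The counts cannot be compared between antibodies, since 10 ends at the mean density ask for 7.58-fold in TET2, 13.3-fold in OGT and 6.22-fold in H2B S112GlcNAc.

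The dense bins were unevenly placed. Chromosome 4 held 33 of the TET2, 2 of the OGT and 27 of the H2B S112GlcNAc bins, chromosome 15 held 21, 1 and 14, and chromosome 2 held 16, 4 and 18. Chromosomes 8, 14 and 17 held none in any library. By distance, 6, 4 and 5 of the 19 final bins met the rule, and from 500 to 1000 kb it was met by 57, 3 and 47 of 9500 bins (0.6%, 0.0316% and 0.495%). Between 50 and 100 kb the shares were 1.26%, 0.632% and 1.58% of 950 bins.

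The libraries shared many of these bins. Of the OGT bins, 19 were also TET2 bins (13.6% of the TET2 and 95% of the OGT bins) and all 20 were H2B S112GlcNAc bins (100% of the OGT and 18% of the H2B S112GlcNAc bins). TET2 and H2B S112GlcNAc had 62 in common, 44.3% of the TET2 and 55.9% of the H2B S112GlcNAc bins, and 19 of the 189 bins found in any library were found in all 3. Over all autosomes TET2 and OGT shared 9.45% of the TET2 and 80.3% of the OGT bins, TET2 and H2B S112GlcNAc 32.6% of the TET2 and 45.9% of the H2B S112GlcNAc bins, and OGT and H2B S112GlcNAc 76.7% of the OGT and 12.7% of the H2B S112GlcNAc bins. Sharing was thus somewhat higher in the last megabase for each pair, with no test of the difference. In each library 7 of the dense bins of the last megabase were its bins above 50 reads in every file, so each pair shares them. Sharing without such bins was not computed, and the difference may rest on them. In bins of 10 kb without those above 50 reads, the Pearson correlation of fold was 0.763 for TET2 and OGT, 0.831 for TET2 and H2B S112GlcNAc and 0.779 for OGT and H2B S112GlcNAc over the 1900 bins of the last megabase. Over the 239623 such bins of the rest of the autosomes it was 0.712, 0.833 and 0.724, all as a description of bins that share sequence and depth. Other measures were lower in the last megabase for each pair. Spearman's rho in the same bins was 0.658, 0.739 and 0.669 there, against 0.689, 0.764 and 0.697 in the rest. With all bins the Pearson correlation was 0.958, 0.968 and 0.960, against 0.967, 0.980 and 0.969.

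Few single bins differed between antibodies. A bin was taken to differ where the higher library had at least 20 distinct ends and its count scaled to library total was at least 4 times the other. In the last megabase 4 bins (0.0211%) were higher in TET2 than in OGT, against 0.00555% of all autosomal bins, and 4 (0.0211%) were higher in TET2 than in H2B S112GlcNAc, against 0.00737%. No bin of the last megabase was higher in OGT than in TET2, against 0.0036% of all autosomal bins, or in OGT than in H2B S112GlcNAc, against 0.00451%. None was higher in H2B S112GlcNAc than in TET2, against 8.28e-05%, or than in OGT, against 0.000124%. Only 29 TET2, 12 OGT and 19 H2B S112GlcNAc bins had the 20 ends the rule asks for, so the counts of 0 say little.

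The bins higher in TET2 lay on 5 chromosomes. They were picked by the ratio itself among all bins of the last megabase. The intervals given for them are not adjusted for this choice and are no check on the ratios. On chromosome 4 at 155510834 to 155511833 there were 23 TET2 against 1 OGT end, a ratio of 13.1 (2.13 to 539), and 16 H2B S112GlcNAc ends. On chromosome 15 at 103012685 to 103013684 there were 37 TET2 against 4 OGT ends, a ratio of 5.26 (1.89 to 20.3), and 20 H2B S112GlcNAc ends. At both of these H2B S112GlcNAc was also above its chromosome mean, by 9.61-fold and 12.6-fold.

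A pair of bins was higher in TET2 than in both others. On chromosome 9 at 123760521 to 123761520 there were 20 TET2 against 2 OGT and 5 H2B S112GlcNAc ends, ratios of 5.69 (1.38 to 50.2) and 4.88 (1.78 to 16.6). On chromosome 19 at 60831765 to 60832764 there were 22 against 2 and 6 ends, ratios of 6.26 (1.54 to 54.9) and 4.47 (1.76 to 13.5). The remaining bins were higher than H2B S112GlcNAc alone. They were chromosome 15 at 103367685 to 103368684, with 20 TET2 against 3 H2B S112GlcNAc ends (ratio 8.13, 2.41 to 42.7), and chromosome 7 at 152046518 to 152047517, with 24 against 7 (ratio 4.18, 1.75 to 11.5). These bins lay 118 to 509 kb from the end, and the TET2 reads per distinct end did not exceed 1.13, unlike the end blocks.

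In pieces of 50 kb without bins above 50 reads, whole stretches of a chromosome lay on one side of its mean. On chromosome 7 every piece was above the chromosome mean, with a mean fold over the libraries between 1.41 and 2.55, and on chromosome 12 every piece was below it, between 0.315 and 0.745. By the mean over the libraries, every piece was also below the chromosome mean on chromosomes 3, 8, 10, 14 and 18. The highest there were 0.996, 0.942, 0.953, 0.956 and 0.927. Single libraries were above 1 in some of these pieces. On chromosome 3 from 100 to 150 kb the folds were 1.19 in TET2, 0.734 in OGT and 1.07 in H2B S112GlcNAc. The highest piece was on chromosome 2 from 50 to 100 kb, with folds of 3.26 in TET2, 2.47 in OGT and 3.10 in H2B S112GlcNAc. The lowest was on chromosome 12 from 600 to 650 kb, with folds of 0.256, 0.314 and 0.374 from 20, 14 and 36 ends.

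Chromosomes 13 and 19 departed from this at their ends, and both are named after their values were seen. The last 50 kb of chromosome 13 had folds of 2.43 in TET2, 2.49 in OGT and 2.34 in H2B S112GlcNAc from 143, 84 and 171 ends, and the next 50 kb had 1.31, 1.63 and 1.27. Over its whole last megabase the folds were 0.785, 0.859 and 0.813. On chromosome 19 the last 50 kb had 2.30, 1.95 and 1.74, the next 50 kb 1.96, 2.10 and 1.66, and the whole last megabase 0.992, 0.962 and 0.940. Neither chromosome had a bin above 50 reads in every file in its last megabase, unlike chromosomes 2, 5, 11 and 18.

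**Figure D5:**
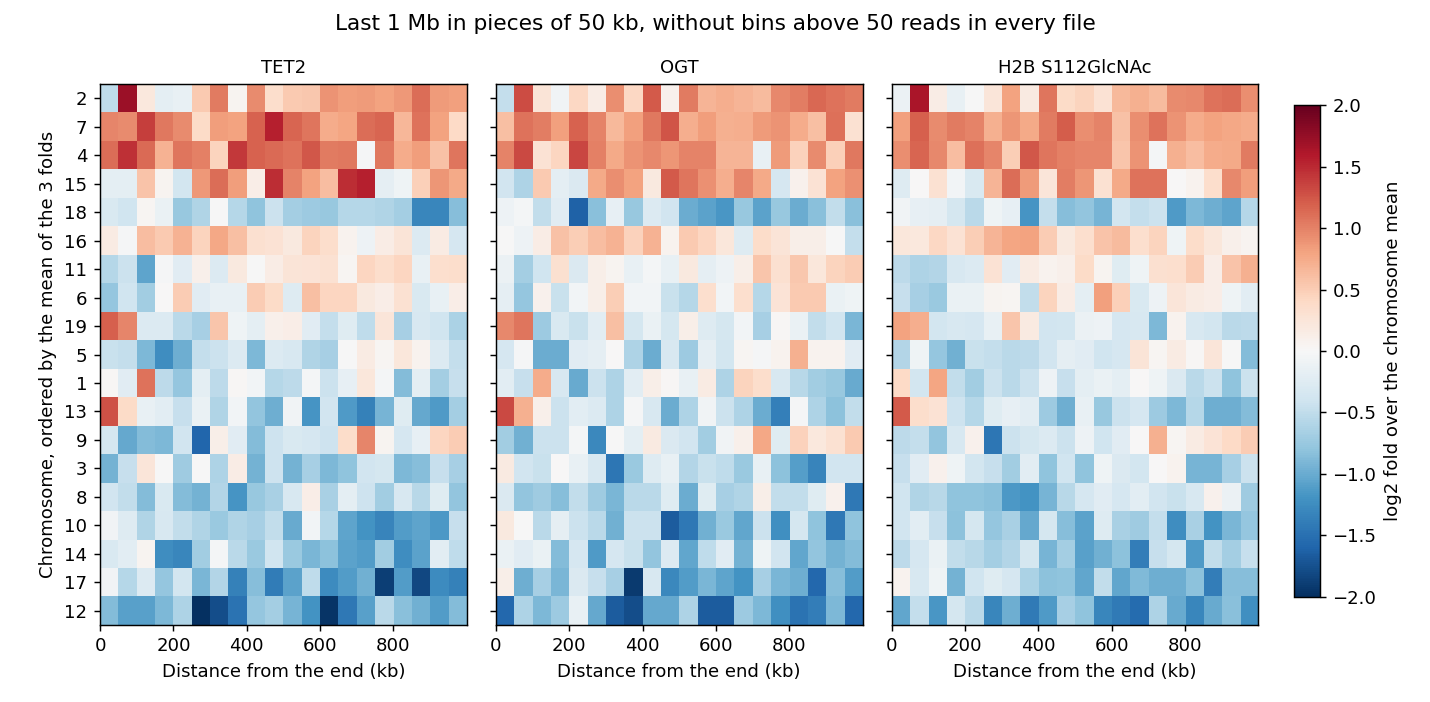
Colour gives the log2 fold over the chromosome mean of each 50 kb piece of the last 1 Mb, without bins above 50 reads in every file, by distance from the end in kb (horizontal axis) and chromosome (vertical axis, ordered by the mean of the 3 folds), for TET2, OGT and H2B S112GlcNAc from left to right. The 3 panels show the same rows mostly in red (7, 4, 2, 15 and 16) and mostly in blue (18, 3, 8, 10, 14, 17 and 12, and also 13, 5, 1, 19 and 9). The pieces nearest the end of chromosomes 13 and 19 stand out within their rows.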

How the data were processed

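Each of the 3 deposited files lists aligned reads of 44 bp with start, end and strand, and the deposited score was 1 constant in every line, so it was not used. Per the labels' protocols, nuclei were sonicated and the fragments were joined to adaptors, size-selected and copied by PCR. The submitters' processing notes name the mm9 build, CASAVA 1.4 and Bowtie 0.12.2 without a role. The placement of reads that match more than 1 place was not given in the sources used here, and it bears most on tandem repeats at chromosome ends. The libraries held 3832237 TET2, 2179445 OGT and 4647963 H2B S112GlcNAc reads.

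Reads were assigned to 1 kb bins by their 5′ end, counted back from the largest read end of each chromosome. The expected count was the chromosome mean over bins from the first to the last read. Intervals were exact (Poisson for folds, Clopper-Pearson for shares, conditional binomial for ratios) at 95%. No test was made, since each antibody had 1 library, and no p-value is given. Counting was tested on simulated data. Named bins were the 8 with the highest fold per library, the 4 with the highest ratio per pair and direction that met the rule of size, and the last bin of each chromosome. The 3 chromosomes with the highest and the 3 with the lowest fold were named too. The members, rules and alternatives were chosen with earlier results of these data known. Alternatives counted all reads, left out bins above 50 reads in every file, moved 5′ ends by 100 bp, drew libraries down to 1 size, changed the length of the end region and left out each chromosome in turn. Python 3.11.15, numpy 2.4.6, scipy 1.17.1, pandas 2.3.3 and matplotlib 3.10.9 were used.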

Additional observations from a re-analysis of the deposited data

Results flagged for a closer look

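The last 1 Mb of chromosome X entered no comparison above, and its signal was above the 3 counts that a count of 0 allows. It held 2200 TET2, 1373 OGT and 2482 H2B S112GlcNAc distinct 5′ ends, at folds of 3.35, 3.56 and 2.99 over the mean of chromosome X. In each library it ranked 1 of the 163 windows of 1 Mb of the chromosome. Without bins above 50 reads in every file the folds were 2.21, 2.09 and 2.13. The final 1 kb, at 166649297 to 166650296, held 327, 256 and 331 distinct ends from 840, 532 and 895 reads, with 65.6%, 64.5% and 63.4% of reads on the plus strand. Adjacent bins from 166526297 to 166527296 and from 166527297 to 166528296, 123 and 122 kb from the end, held 130 and 305 TET2, 102 and 219 OGT and 125 and 275 H2B S112GlcNAc ends. In the final block the correlation of plus-strand read counts at 6 bp was 0.434, 0.350 and 0.492, and the median over distances at least 2 bp away from a multiple of 6 was 0.235, 0.147 and 0.212. The distance from 2 to 24 bp with the highest correlation was 4 bp in TET2 (0.459), 3 bp in OGT (0.378) and 6 bp in H2B S112GlcNAc, a multiple of 6 in 1 of 3 libraries, against 12 of 12 plus-strand profiles of the autosomal blocks.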

How the results depend on the processing

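Of 144 main values recomputed under other settings 81 stayed within their spread and 63 moved, and no value was called by a test. Folds and ratios near 1 crossed it under some settings, as given here. In 0 of these 144 values did the interval exclude 1 on the side opposite to that of the main value. All reads without the final 1 kb were not among these settings. There the folds of the last 1 Mb were 0.937 (0.925 to 0.948) in TET2, 0.921 (0.906 to 0.936) in OGT and 0.928 (0.918 to 0.938) in H2B S112GlcNAc. These intervals lay below 1, while those of the main folds lay above it. The fold of the last 1 Mb, given for TET2, OGT and H2B S112GlcNAc, moved to 1.02, 1.002 and 1.01 without bins above 50 reads in every file, and to 1.02, 0.998 and 1.01 with all reads and without those bins. It was 1.001, 0.986 and 0.994 without the last 10 kb, 1.004, 0.988 and 0.997 without the last 1 kb (chosen after seeing the data), 1.14, 1.18 and 1.10 over the last 500 kb, and 1.12, 1.12 and 1.10 over the last 2 Mb. The TET2 fold was 1.08 with reads drawn down before distinct ends were counted, which was chosen after seeing the data. That of H2B S112GlcNAc was 1.07 with distinct ends drawn down and 1.06 over a mean without the first and the last 1 Mb. Leaving out each chromosome in turn gave TET2 folds of 1.01 to 1.11, OGT folds of 1.01 to 1.12 and H2B S112GlcNAc folds of 0.999 to 1.09, lowest without chromosome 2 and highest without chromosome 12. The cause of these shifts beyond the bins left out was not tested.

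The ratio of TET2 over OGT was 1.01 without bins above 50 reads, 1.02 in all reads without them, 1.02 without the last 10 kb and without the last 1 kb, 0.972 over the last 500 kb, and 0.980 to 1.003 without each chromosome. TET2 over H2B S112GlcNAc was 0.997 drawn down, 1.04 over the last 500 kb, and 1.01 to 1.03 without each chromosome. OGT over H2B S112GlcNAc was 0.994 without bins above 50 reads, 0.986 in all reads without them, 0.991 without the last 10 kb and without the last 1 kb, 1.07 over the last 500 kb, and 1.01 to 1.03 without each chromosome.

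The fold of the final 1 kb was 144, 148 and 119 in all reads, 2.38, 2.65 and 1.99 without bins above 50 reads, 2.29, 2.74 and 2.17 in all reads without them, and 59.8, 79.2 and 48.4 with 5′ ends moved 100 bp. With reads drawn down first it was 87.1 for TET2 and 77.0 for H2B S112GlcNAc. Beyond 1 kb, 110 of 126 recomputed folds stayed within their spread.

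Dense bins numbered 46 in TET2 and 19 in H2B S112GlcNAc with distinct ends drawn down, and 49 and 24 with reads drawn down. There were 13 in OGT without bins above 50 reads, 38 in H2B S112GlcNAc at 8-fold, and 542, 194 and 367 with at least 5 ends, a limit chosen after seeing the data. Alternatives for bins that differ were all chosen after seeing the data. TET2 over OGT gave 7 in all reads, 1 drawn down and 24 with at least 10 ends, and TET2 over H2B S112GlcNAc gave 1 drawn down and 11 with at least 10 ends. H2B S112GlcNAc over TET2 gave 10 and over OGT 15 with at least 10 ends. Depth limits single bins, since a mean bin holds 1.32, 0.751 and 1.61 ends. No paired analysis was possible because there was a single library per antibody.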
